A study of Homo sapiens with 2 samples.

Results

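The epithelial identity genes are 10 genes that build or maintain an epithelial cell sheet: the adhesion genes CDH1, EPCAM, CLDN4 and CLDN7, the transcription factor genes OVOL1, OVOL2, GRHL2 and ELF3, and the splicing regulator genes ESRP1 and ESRP2. They were chosen by name, and every peak that carries the symbol of a member in the authors' annotated peak list was taken. That gave 14 of 67071 peaks, on 9 of the 10 genes. The list comes from chromatin immunoprecipitation followed by sequencing (ChIP-seq) of JARID2 in untreated MDA-MB-231 cells, an established human cell line from a triple-negative breast cancer. There was 1 library precipitated with a polyclonal JARID2 antibody (Novus Biologicals) and 1 input library made without an antibody, per the labels. Only the peak list of the ChIP library was analysed, so no value has a replicate and no test between conditions could be made. All coordinates of peaks are on hg19, as the list gives them.

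JARID2 is an accessory subunit of Polycomb repressive complex PRC2, which methylates lysine 27 of histone H3 and keeps developmental genes silent. Epithelial cells hold together through E-cadherin junctions and claudin-based tight junctions, and a small set of transcription and splicing factors keeps that programme on. During an epithelial-mesenchymal transition (EMT) the repressors of the SNAI and ZEB families bind E-box motifs in epithelial promoters and switch the programme off. MDA-MB-231 is known as a mesenchymal-like line in which several of these genes are silent. The list holds no expression values, so neither that silence nor the mesenchymal-like state was tested.

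RefSeq promoter sequence was matched for 3 of the members, ELF3, CLDN4 and CLDN7. Bases just before a RefSeq start site are shown because each of these genes was given a promoter peak, and the CLDN7 stretch for its E-boxes. Capitals mark the E-box CAGGTG or its reverse complement CACCTG, the same motif read on either strand. The sequences are from GRCh38.p14, while the peaks are on hg19, so a base below cannot be placed inside a peak by its coordinates, and the start sites of the 2 annotations were not matched.
ELF3, chr1:202010337-202010586, plus strand: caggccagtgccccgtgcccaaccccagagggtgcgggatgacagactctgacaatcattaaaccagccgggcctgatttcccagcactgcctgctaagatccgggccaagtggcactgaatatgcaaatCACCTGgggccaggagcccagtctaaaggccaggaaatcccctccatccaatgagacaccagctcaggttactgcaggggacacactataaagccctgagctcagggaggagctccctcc
CLDN4, chr7:73830746-73830995, plus strand: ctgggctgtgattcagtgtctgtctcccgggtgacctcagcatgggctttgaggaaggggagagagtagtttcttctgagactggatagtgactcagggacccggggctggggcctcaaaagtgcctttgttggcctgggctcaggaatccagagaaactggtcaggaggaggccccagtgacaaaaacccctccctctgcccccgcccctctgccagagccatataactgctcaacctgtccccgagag
CLDN7, inner start site, chr17:7262479-7262508, minus strand: tacatatactCAGGTGcgcccCACCTGtcc

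The ELF3 window of 250 bases held 1 E-box, at bases 120 to 115 before the start site. The CLDN4 window held 0. For CLDN7 the table has 2 start sites. The window before the outer start site held 0 E-boxes and that before the inner start site held 4, of which the 2 nearest the start are shown. Of 22198 such windows at 15842 protein-coding genes, 17% held an E-box and 19 (0.0856%) held at least 4. The ELF3 and CLDN4 windows were poor in CpG, the dinucleotide whose clusters form CpG islands. Their ratio of observed to expected CpG was 0.19 for ELF3 and 0.185 for CLDN4, against a median of 0.711 over all windows. The 2 CLDN7 windows had 0.423 and 0.806. A motif match is a description of these letters and not a binding site.

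Most members had a promoter peak. Of the 10 genes, 9 carried a peak (90.0%), against 56.3% of 20033 protein-coding genes, and ESRP2 carried none. A promoter peak, meaning a peak that the list classes as within 3 kb of a transcription start site (TSS), was given to 7 of the 10 members, against 33.1% of protein-coding genes. These were CDH1, EPCAM, CLDN4, CLDN7, OVOL1, OVOL2 and ELF3. By peaks, 7 of the 14 were of the promoter class, against 20.5% of all peaks, and the other 7 lay in introns. The members were picked with earlier results of these data known, so these counts describe the genes and no test was made of them.

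The height of the member peaks was close to that of the whole list. Fold enrichment is the authors' ratio of ChIP to the background that the peak caller estimated. The 14 member peaks had a median fold enrichment of 5.96 (range 3.23 to 9.71), against 5.95 for all peaks (quartiles 5.28 and 6.85). Their median tag count was 18 (10 to 53), against 12 for all peaks, and their median width 674 bp (369 to 1734), against 510 bp. Per kilobase of peak the median was 27.0 tags for members and 24.8 for all peaks. Over promoter peaks only, the medians were 19 tags and 713 bp for the 7 member peaks, against 14 tags and 552 bp for the list.

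The false discovery rate (FDR) of the list separates 3 members from the rest. At an FDR of at most 5% there was 1 member peak of 14, at EPCAM, against 1.24% of all peaks. At an FDR of at most 20% there were 3, at EPCAM, OVOL2 and OVOL1, against 4.15% of all peaks. All 3 are promoter peaks, so 3 of 10 members had a promoter peak at that limit, against 5.44% of protein-coding genes, and 1 of 10 at the limit of 5%, against 2.47%. Promoter peaks reach these limits more often than the whole list does. Of all 13764 promoter peaks, 1386 had an FDR of at most 20% and 590 of at most 5%. Of the 7 member promoter peaks, 3 and 1 did. By contrast 9 of the 14 (64.3%) had an FDR above 40%, against 70.3% of all peaks. Promoter peaks in the top 25% of the list by fold enrichment, at 6.85 or above, were also found at 3 members, OVOL1, ELF3 and OVOL2, against 11.2% of protein-coding genes. By promoter peaks, the members that stand out by FDR and by fold enrichment are therefore not identical. EPCAM is in the first set only and ELF3 in the second only. CDH1 also reached the fold limit, with intron peaks at 9.71 and 7.06, but not the FDR limit of 20%.

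**Figure D1:**
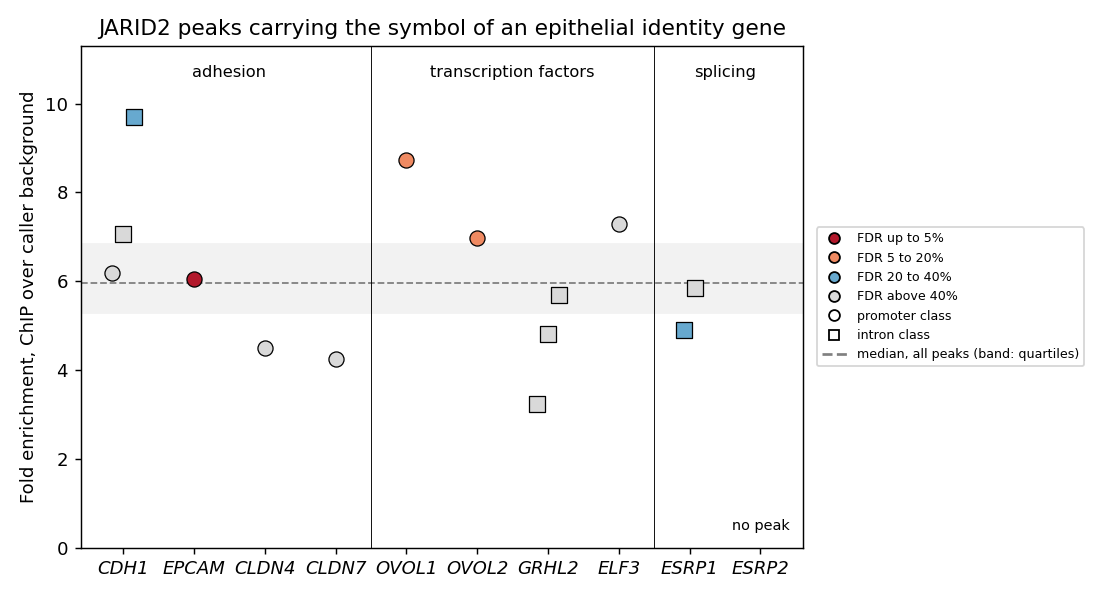
Fold enrichment (vertical axis) of each listed peak of the 10 epithelial identity genes, ordered by role; circles are promoter peaks, squares intron peaks, the colour gives the FDR class, and the dashed line and band are the median and quartiles of all 67071 peaks. CDH1 has the highest peak, 9.71, in an intron, the EPCAM peak of lowest FDR sits near the median at 6.06, and no peak carries the symbol ESRP2.

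EPCAM, which encodes a homophilic adhesion molecule of simple epithelia, had the peak of lowest FDR among the members. The peak (chr2:47596236-47597529) was 1294 bp wide and held 53 tags (95% Poisson interval 39.7 to 69.3). Its fold enrichment was 6.06 and its FDR 4.53%. It overlapped the start site, reaching from 51 bp before it to 1242 bp into the gene, with its summit at 774 bp. In the list 47.3% of peaks had a higher fold enrichment, but 0.625% had more tags and 1.20% a lower FDR. EPCAM thus ranked high by tags and FDR and in the middle by ratio.

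CLDN4 and CLDN7 encode claudins, the membrane proteins that form tight junction strands. The CLDN4 peak (chr7:73245231-73246957) held 52 tags (38.8 to 68.2), about as many as EPCAM, over 1727 bp. Its fold enrichment was 4.50 and its FDR 45.57%. It began 39 bp after the start site and covered 94.8% of the 1822 bp transcript it was given to. Only 0.306% of all peaks were wider, while 90.8% had a higher fold enrichment. EPCAM and CLDN4 thus held like numbers of tags, with overlapping intervals, and lay on opposite sides of the FDR limit.

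The CLDN7 peak (chr17:7167638-7168445) held 19 tags (11.4 to 29.7), with a fold enrichment of 4.24 and an FDR of 46.56%. In all, 95.4% of peaks had a higher fold enrichment, so CLDN7 had the weakest promoter peak of the members. The deposited distance to the start site was 1143 bp, which is the distance to the far edge of the peak. The near edge lay 337 bp before the start site. A second peak, 1863 bp before the CLDN7 start at its near edge, was named for a Y_RNA copy (a small noncoding RNA) and had 7.28 with 23 tags and an FDR of 21.20%.

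CDH1 encodes E-cadherin, the core of the adherens junction. It carried 3 peaks, all of few tags, and no listed peak overlapped the start of its full-length transcript. The strongest (chr16:68824426-68824812) lay in intron 2 of 15, with 13 tags (6.92 to 22.2), a fold enrichment of 9.71 and an FDR of 26.32%. It was the highest of the 14 member peaks, and 1.12% of all peaks were higher. The second (chr16:68752029-68752397) lay 18731 bp before the start, inside an intron of CDH3, the neighbouring P-cadherin gene, with 10 tags (4.80 to 18.4) and a fold enrichment of 7.06 (FDR 41.35%).

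The third CDH1 peak (chr16:68859920-68860362) gave the gene its place among those with a promoter peak. It lay 2773 bp after the start of a shorter transcript of 10340 bp, and 88792 bp into the full-length transcript. It held 10 tags (4.80 to 18.4), with a fold enrichment of 6.18 and an FDR of 46.27%. The value 6.18 was shared by 7555 peaks of the list. Nearest to the full-length start was a peak 2901 bp after it that the list names for RNA5SP429, a 5S RNA pseudogene inside CDH1. That peak had 12 tags, a fold enrichment of 6.18 and an FDR of 41.62%.

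**Figure D2:**
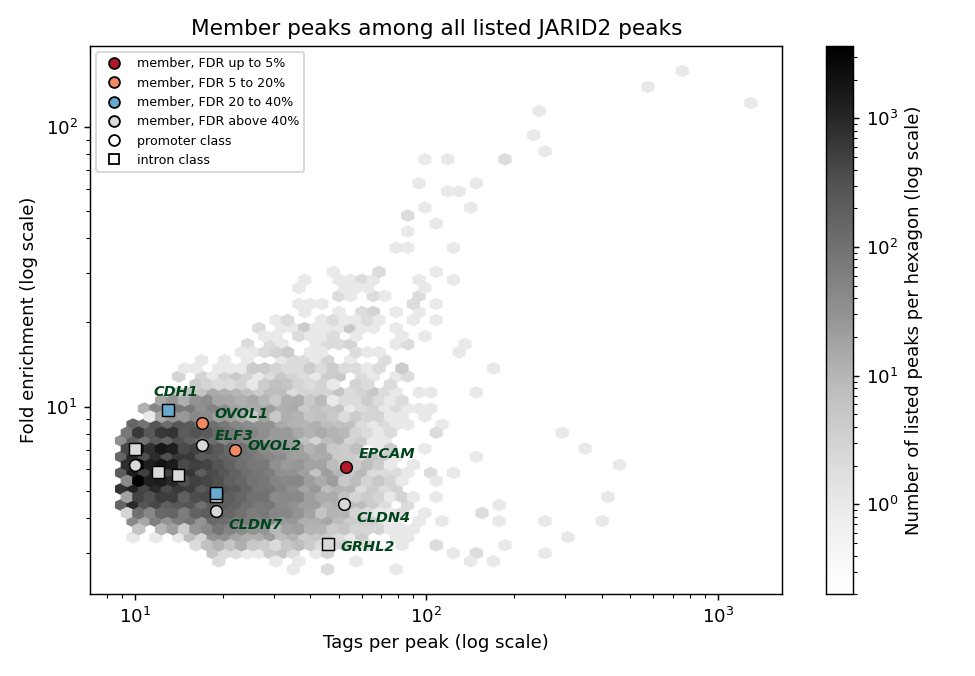
Tags per peak (horizontal, log scale) against fold enrichment (vertical, log scale) for all 67071 listed peaks (grey hexagons) and the 14 member peaks (coloured by FDR class, circles for promoter and squares for intron peaks). EPCAM at 53 tags and CLDN4 at 52 tags lie far right of most peaks but within the main range of fold enrichment, while CDH1 (13 tags) and OVOL1 (17 tags) lie higher, at 9.71 and 8.73.

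OVOL1 and OVOL2 encode zinc finger repressors that hold EMT regulators off in epithelial cells. The OVOL1 peak (chr11:65554536-65554994) began 44 bp after the start site and was 459 bp wide, with its summit at 199 bp. It held 17 tags (9.90 to 27.2), with a fold enrichment of 8.73 and an FDR of 19.04%. This was the highest promoter peak of the members, and 3.83% of all peaks were higher. Past the end of OVOL1 a peak named for RP11-770G2.5 began 544 bp beyond the gene, with a fold enrichment of 9.64, 12 tags and an FDR of 27.20%.

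The OVOL2 peak (chr20:18037367-18038006) lay inside the gene, with its near edge 515 bp after the start site and its summit at 634 bp. It held 22 tags (13.8 to 33.3), with a fold enrichment of 6.97 and an FDR of 8.97%, the second lowest of the members. In the list 1.89% of peaks had a lower FDR. OVOL2 is on the minus strand, and the deposited distance, 1153 bp, is again that to the far edge. Near the other end of the gene a peak of the 3′ UTR class, named for PTMAP3, had a fold enrichment of 7.06 with 10 tags and an FDR of 44.17%.

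ELF3 encodes an ETS family transcription factor of epithelial cells. Its peak (chr1:201978134-201978846) ended 799 bp before the start site and held 17 tags (9.90 to 27.2), with a fold enrichment of 7.28 and an FDR of 40.82%. A second peak of the promoter class lay closer to the ELF3 start, ending 29 bp before it, but carries the symbol RP11-465N4.4. This peak (chr1:201978995-201979616) held 18 tags, with a fold enrichment of 7.92 and an FDR of 31.60%. The ELF3 start thus had 2 listed peaks on its upstream side, both higher than the list median, and the symbol alone shows the weaker and more distant of them.

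**Figure D3:**
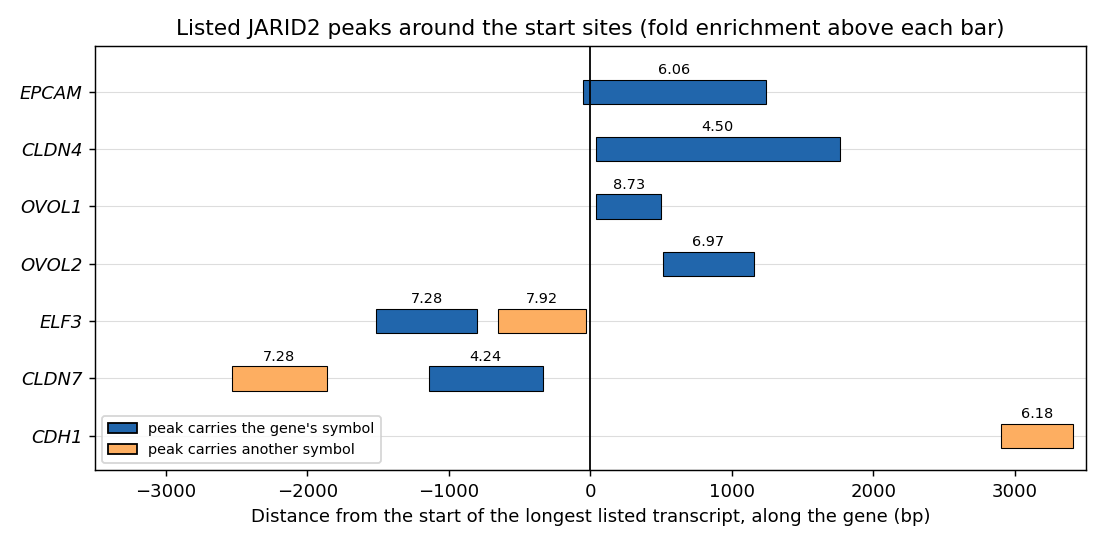
Listed peaks within 3500 bp of the start of the longest listed transcript, for the 7 members with a promoter peak; the horizontal axis is the distance along the gene in bp, bars span each peak, blue bars carry the gene's symbol, orange bars another symbol, and the number above a bar is the fold enrichment. EPCAM has the peak that overlaps its start, CLDN4, OVOL1 and OVOL2 have peaks inside the gene, ELF3 and CLDN7 have peaks upstream, and the nearest CDH1 peak, 2901 bp in, is named for another gene.

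GRHL2, ESRP1 and ESRP2 had no promoter peak. GRHL2 encodes a grainyhead factor that activates CDH1 and claudin genes. Its 3 peaks lay 6918 bp before the start site of the transcript each was given to and 9283 and 13277 bp after it. Their fold enrichments were 5.69 with 14 tags, 4.81 with 19 tags and 3.23 with 46 tags. The FDR of each was between 41.41% and 45.61%. The peak of 46 tags was the widest of the members at 1734 bp, and 99.9% of all peaks had a higher fold enrichment. A further 4 peaks inside the GRHL2 span carried the symbols of KB-1562D12.2 and KB-1562D12.3, with fold enrichments between 4.37 and 5.60 and FDRs between 37.83% and 48.06%.

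ESRP1 and ESRP2 encode RNA-binding proteins that set epithelial splice forms. ESRP1 carried 2 intron peaks. The first (chr8:95671644-95672467) lay in intron 4 of 14, with 19 tags (11.4 to 29.7), a fold enrichment of 4.91 and an FDR of 34.96%. The second (chr8:95712147-95712612) lay in intron 14 of 14, with 12 tags (6.20 to 21.0), a fold enrichment of 5.85 and an FDR of 40.43%. Each was given to a short inner transcript, 4918 and 5270 bp before its start. No peak carried the symbol ESRP2, and a weak peak below the caller's threshold would not be listed. Whether a listed peak of another symbol lies at ESRP2 was not examined.

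By their highest peak the members ordered as CDH1 (9.71), OVOL1 (8.73), ELF3 (7.28), OVOL2 (6.97), EPCAM (6.06), ESRP1 (5.85), GRHL2 (5.69), CLDN4 (4.50) and CLDN7 (4.24). The deposited ratios carry no error, so neighbours in this order were not told apart. The tag counts behind the first 4 were 13, 17, 17 and 22, with overlapping intervals. Those intervals are on tags and do not measure the error of a ratio. By tags in a single peak the order was led by EPCAM (53), CLDN4 (52) and GRHL2 (46), whose intervals lie above those of the other members' peaks and overlap each other. By role, the median fold enrichment was 6.12 for the 6 adhesion peaks, 6.33 for the 6 transcription factor peaks and 5.38 for the 2 splicing regulator peaks.

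How the distance was measured decides how near a promoter peak counts as being. For all 32626 plus-strand peaks that do not overlap a start site, the deposited distance equals that to the nearest edge of the peak. For all 30777 such minus-strand peaks it equals that to the farthest edge. Within 1 kb of a start site the list therefore holds 2850 minus-strand peaks by the deposited distance, but 4050 by the nearest edge. On the plus strand both give 4315. Among the members this moves the minus-strand genes CLDN7 and OVOL2. By the deposited distance 4 of 10 members had a peak within 1 kb, against 22.3% of protein-coding genes, and by the nearest edge 6 of 10 had one, against 24.8%.

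Peaks of other symbols also lay in and around these genes. Within 50 kb of the listed transcripts of the 9 members with a peak there were 30 such peaks. Of these, 6 overlapped a member's transcript, 4 of them at GRHL2 and 1 each at CDH1 and OVOL2. The surroundings of ESRP2, which has no listed transcript, were not searched. No like count was made around other genes. OVOL1 had most neighbours, with 10, and CLDN4 had 0. Each peak carries the symbol of the transcript to whose start its distance was measured, even where it lies inside another gene. The symbol does not show which gene a peak belongs to.

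Other epithelial genes also carried promoter peaks, none with an FDR of 5% or less, a limit that 2.47% of protein-coding genes reached. Counting peaks of any class, 1 of these genes, FOXA1, reached that limit, as did 1 of the 10 members, EPCAM. The FOXA1 peak lay downstream of a gene end (7.28 with 32 tags, FDR 4.61%). The share of all protein-coding genes at that limit, for peaks of any class, was not computed. Over 5 further epithelial lists, 49 of 67 genes had a peak (73.1%) and 31 a promoter peak (46.3%). The members had 9 and 7 of 10, and all protein-coding genes 56.3% and 33.1%. At an FDR of at most 20%, 4 of the 67 had a promoter peak, against 5.44% of protein-coding genes. The median fold enrichment of their 120 peaks was 5.71, against 5.92 for peaks of protein-coding genes. The differences between these shares were not tested.

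Among adherens junction and desmosome genes 8 of 14 had a promoter peak, led by the envelope protein gene PPL (8.83, FDR 34.21%), CDH3 (7.95, FDR 19.46%) and the desmoglein gene DSG2 (7.95, FDR 40.86%). Tight junction and polarity genes had 8 of 16, led by the cingulin gene CGN (7.21, FDR 41.28%), the polarity gene LLGL2 (7.06, FDR 48.79%) and the zonula occludens gene TJP3 (6.79, FDR 40.66%). The lowest FDR of a promoter peak was 38.39% for LLGL2 and 33.36% for TJP3. PARD6B, a polarity gene named because of its low FDR, had 3.79 with 76 tags and 14.23%. Simple epithelial keratins had 3 of 4, namely KRT8 (6.67, FDR 33.55%), KRT7 (5.65, FDR 48.10%) and KRT18 (3.93, FDR 48.11%).

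Other epithelial transcription factors had promoter peaks at 7 of 15 genes. Among them TFAP2C had 6.99 with 33 tags (FDR 18.58%), KLF5 had 6.97 (FDR 29.06%), and GRHL3, a relative of GRHL2, had 5.72 (FDR 45.87%). Neither GRHL1 nor OVOL3 carried a peak. Epithelial surface and trafficking genes had 5 of 18, led by PROM2 (7.95, FDR 43.78%), the membrane protease gene ST14 (7.66, FDR 37.13%) and the tricellular junction gene LSR (6.82, FDR 14.94%).

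Genes of the opposite programme were listed too. EMT transcription factors had promoter peaks at 3 of 10 genes, and the difference from the 7 of 10 members was not tested. These were ZEB2 (7.95, FDR 43.61%), SNAI1 (7.12 with 34 tags, FDR 29.32%) and SNAI2 (5.82, FDR 29.28%), and a further SNAI1 promoter peak had an FDR of 5.81%. The strongest ZEB2 peak lay in a 3′ UTR (chr2:145146609-145147648), with 59 tags, a fold enrichment of 13.58 and an FDR of 0, which is higher in ratio and lower in FDR than every member peak. ZEB1 and TWIST1 carried no peak. Mesenchymal genes had 9 of 22 (40.9%), led by the integrin gene ITGAV (8.0, FDR 39.63%), the collagen gene COL5A1 (7.67, FDR 30.50%) and the vimentin gene VIM (6.61, FDR 35.02%). Another ITGAV promoter peak had an FDR of 16.52%. With a promoter peak at an FDR of at most 20% there were 3 of 10 members, 1 of 10 EMT factors and 1 of 22 mesenchymal genes. The other epithelial lists together had 4 of 67, and the share over all protein-coding genes was 5.44%. Differences between these counts were not tested. Taking the strongest promoter peak of each gene, the median fold enrichment was 6.18 for the 7 members, 7.12 for the 3 EMT factors, 5.66 for the 9 mesenchymal genes and 6.18 for all protein-coding genes with a promoter peak.

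**Figure D4:**
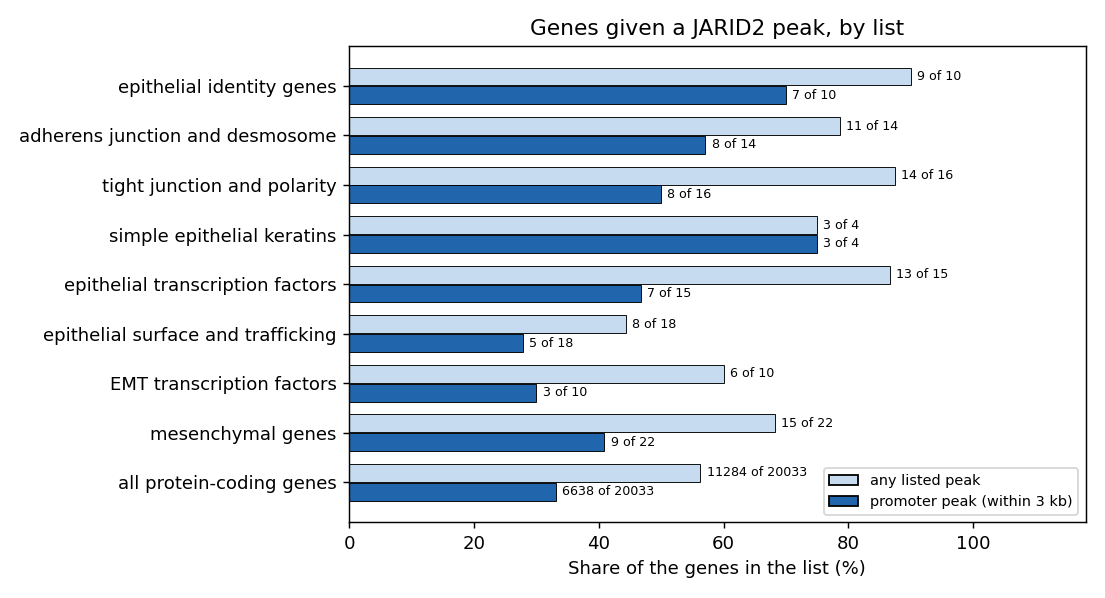
Share of genes (horizontal axis, percent) with any listed peak (light bars) and with a promoter peak (dark bars) in each list, with counts beside the bars. The 10 epithelial identity genes have 9 and 7, EMT transcription factors 6 and 3 of 10, and all protein-coding genes 11284 and 6638 of 20033.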

How the data were processed

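One peak list was used, of 1 JARID2 ChIP library of MDA-MB-231 cells. Per the submitters' processing notes, the build was hg19 and the tools were ChIPseeker, MACS2, MACS, Bowtie 0.12.8 and bcl2fastq. Caller version, thresholds and the use of the input were not given in the sources used here. Tags are deposited as raw counts for each peak. Per the file headers, the authors' fold enrichment is a ratio to the caller's background and their FDR a percent. The header of the deposited score was unreadable, and its minimum of 30 and its place led to reading it as 10 times −log10 p. The library depth is unknown, so Poisson intervals (95%) on tags cover counting error only, and PCR copies are not independent molecules.

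Members were matched by symbol. Shares used the 20033 protein-coding genes in the GRCh38.p14 RefSeq table, matched by symbol or by a synonym of 1 gene (11308 of 26257 listed symbols). Distances were recomputed from peak edges. The distance and symbol steps were checked on simulated peaks. All members, up to 3 genes per other list by promoter fold enrichment, and neighbouring symbols are named; genes named outside this rule (PARD6B, FOXA1, GRHL1, GRHL3, OVOL3, ZEB1, TWIST1) were chosen after their values were seen, and some genes that the rule picks are left out. Members, lists and rules were chosen with earlier results of these data known. Python 3.11.15, pandas 2.3.3 and scipy 1.17.1 were used.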

Additional observations from a re-analysis of the deposited data

How the results depend on the processing

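The counts depend on the limit set on weak peaks. Members with any peak numbered 4 at −log10 p of at least 5, 4 in the top 25% by fold enrichment, 3 at an FDR of at most 20% and 1 at 5%, against 9 in the whole list. Members with a promoter peak numbered 3, 3, 3 and 1 at the same limits, and 4 with the deposited distance cut at 1 kb, against 7. Of all protein-coding genes, 11.2% had a promoter peak in the top 25% by fold enrichment. The share was 5.44% at an FDR of at most 20%, 2.47% at 5%, and 22.3% within 1 kb. Shares over all genes were not computed at the −log10 p limit, for any peak at these limits, or for a reach of 2 kb. Those member counts therefore have no share to be read against. Member peaks numbered 4, 5 and 3 at the first 3 limits, against 14. Of all 67071 peaks, 16887 were in the top 25% by fold enrichment and 2782 had an FDR of at most 20%. The median fold enrichment was 6.18 over promoter peaks and 6.06 over the highest peak of each member, against 5.96. The highest CDH1 value was 6.18 with promoter peaks only, against 9.71, and the other 6 members with a promoter peak kept theirs. Assignment by position dropped ESRP1, since its peaks lie outside the short transcripts they were given to. Both peaks do lie in introns of a longer ESRP1 transcript. This assignment gave 8 members with a peak and 7 with a promoter peak. A reach of 2 kb gave 6, nearest-edge distances (added after the data were examined) gave 7 within 3 kb and 6 within 1 kb, and merging peaks within 1 kb left 14. The library depth is unknown and most member peaks rest on few tags, so binding weaker than the caller's threshold, at ESRP2 for example, would not be listed. A listed peak at ESRP2 under another symbol was not searched for either. No paired analysis was possible because there is 1 ChIP library and no test between samples.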
